A study of Mus musculus with 4 samples.

Results

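The genes for the proteins of the mitochondrial ribosome (mitoribosome) were examined in denuded mouse oocytes, that is, oocytes stripped of their cumulus cells, after culture with HDACi 4b or with DMSO as control. Members were all rows of the expression table whose gene name begins with Mrpl or Mrps followed by a number and at most 1 further letter. The rule used names only and no measured value. It found 76 genes among the 26631 rows, of which 25 encode proteins of the small subunit, 50 encode proteins of the large subunit and 1 (Mrps36) was placed in neither. Mrps18a and Mrps30 were counted with the large subunit, where the structure of the mammalian mitoribosome places them. All oocytes were wild type, of the C57BL/6 background, and taken at postnatal day 24. Each group, control (DMSO) and HDACi 4b, which inhibits HDAC1 and HDAC3, enzymes that deacetylate histones, had 2 libraries (n = 2), and the study's methods describe RNA from a pool of oocytes per group. The treatment was the only labelled difference between the groups. The question was whether the transcriptome of the oocyte differs between the control and HDACi 4b-treated groups.

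Mitochondria carry their own small genome, and the few proteins it encodes, all of them parts of the respiratory chain and the ATP synthase, are made on a ribosome of their own. Its ribosomal RNAs come from mitochondrial DNA, whereas its proteins are encoded in the nucleus, made in the cytoplasm and imported. Some of these proteins descend from bacterial ribosomal proteins and others are specific to mitochondria. The oocyte is rich in mitochondria, which pass to the embryo through the mother, and the fully grown oocyte relies on stored transcripts, since its own transcription has largely ceased.

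Values are given as RPKM, read counts divided by gene length and library size, so that levels of different genes can be compared per length. The libraries held 13478189 to 14903547 reads, and 9015 to 10027 genes reached 1 RPKM. Because the extraction note in the labels names ovaries, markers of other ovarian cells were examined as well. All 10 oocyte markers examined, among them Zp3 and Gdf9, reached 1 RPKM, with sums of 6393 to 8291 RPKM per library. Of the measured markers of granulosa and cumulus cells 2 of 10 reached 1 RPKM (sums of 6.21 to 7.38), and of theca and stroma 0 of 7 did (sums of 0.705 to 1.42). Of blood, immune and endothelial markers 5 of 9 did, with sums of 29.5 and 17.7 in the control libraries and 49.4 and 12.8 in the HDACi 4b libraries. The part of these cells in the values below was not tested. In pooled cells, a smaller share of a cell type cannot be told apart from less RNA per cell.

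The members were expressed over a wide range (as the plot of levels in the 4 libraries shows). The mean level over the 4 libraries ran from 0.162 RPKM in Mrpl19 to 713 RPKM in Mrps33, a 4413-fold range, with a median of 16.4 RPKM. Above 100 RPKM there were 6 members, and 3 were under 1 RPKM. The summed level of all 76 was 3098 and 3122 RPKM in control and 2920 and 3082 RPKM in HDACi 4b libraries, or 0.719%, 0.756%, 0.696% and 0.717% of the summed RPKM. The sum rested on few genes. Mrps33 alone gave 21.5% to 27.0% of it, and the 5 most abundant members gave 42.3% to 46.4%. Most of these proteins are present as a single copy in the assembled particle.

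**Figure D1:**
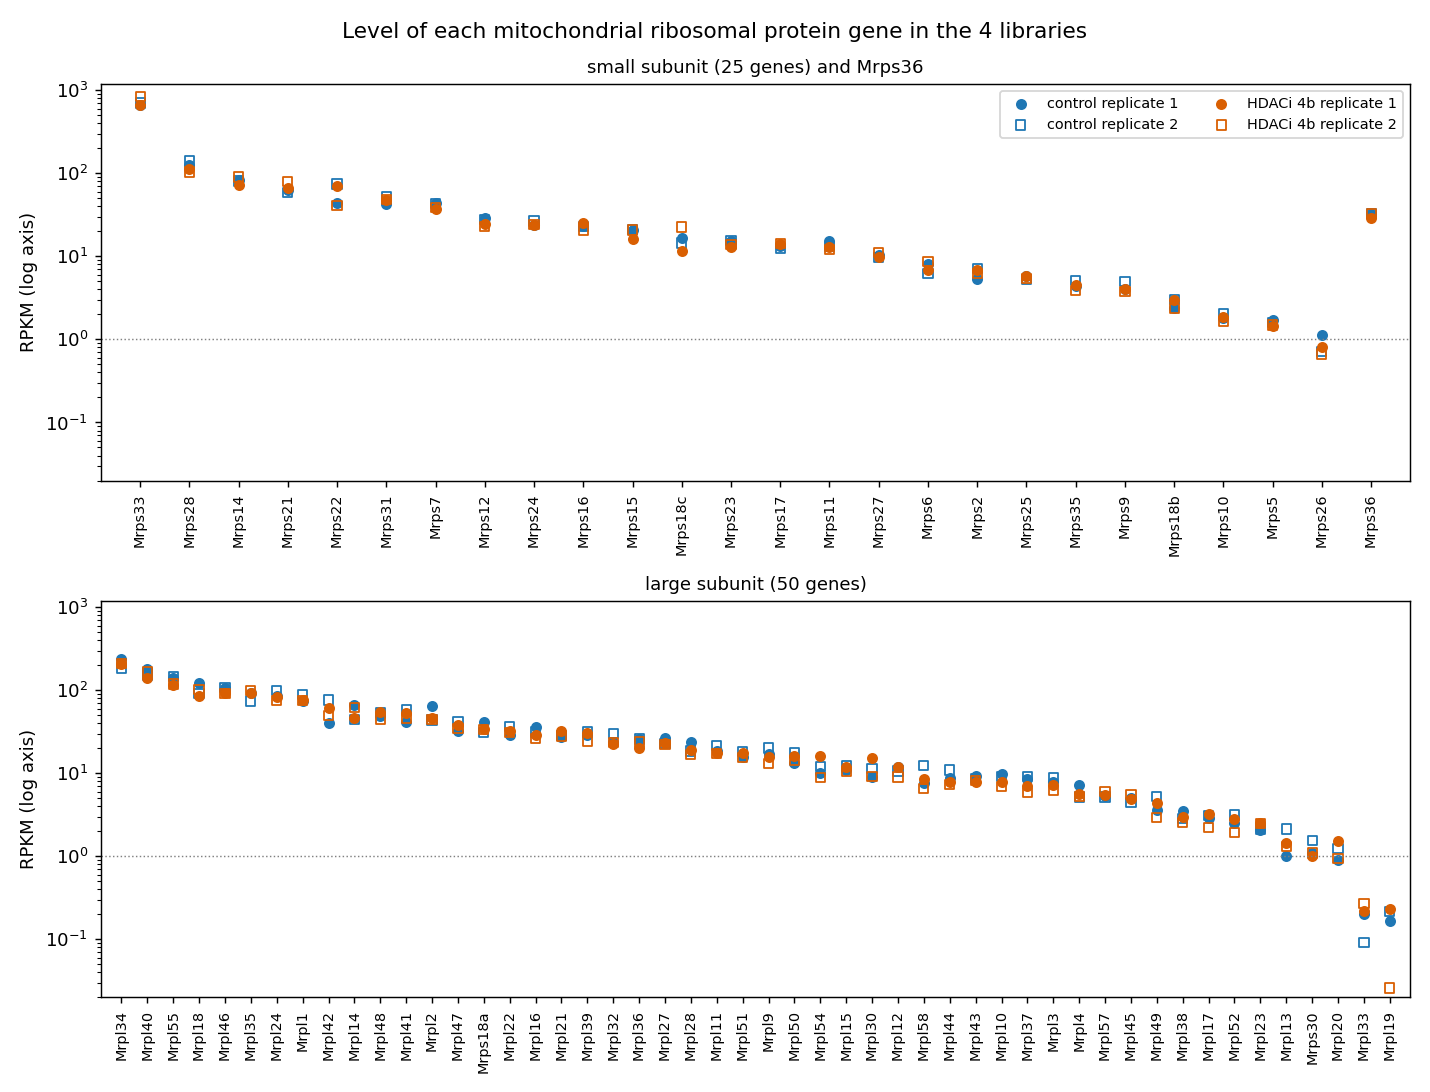
RPKM on a log axis for each of the 76 genes, ordered by mean level within the small subunit with Mrps36 (top) and the large subunit (bottom), 1 point per library and a dotted line at 1 RPKM. Mrps33 stands far above the others at 656 to 831 RPKM, the libraries lie close together for most genes, and Mrpl33 and Mrpl19 fall below 0.3 RPKM.

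In the small subunit, Mrps33, a protein specific to mitochondria (chr6:39801804-39810988 in GENCODE M21, the annotation of GRCm38, as for all gene positions below), was the most abundant member of all. It had 665 and 701 RPKM in control and 656 and 831 RPKM in HDACi 4b libraries, and as deposited the highest and the lowest value both belonged to the HDACi 4b group. Its log2 fold change was 0.18 ± 0.30 (SE), corresponding to 1.13-fold (95% interval 0.69 to 1.86). Mrps28, counterpart of the bacterial S1 protein (chr3:8802146-8923918), had 126 and 140 RPKM in control and 113 and 103 RPKM in HDACi 4b libraries. Both treated libraries lay below both controls, with a log2 fold change of -0.23 ± 0.19 (SE). Mrps14, a counterpart of a bacterial protein of the small subunit head, had 82.5 and 80.7 RPKM in control and 72.0 and 90.2 RPKM in HDACi 4b libraries, so the groups overlapped. Mrps21 had 62.8 and 58.4 RPKM against 66.1 and 79.6 RPKM, with both treated values above both controls as deposited, although the groups overlapped after scaling.

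Mrps22, a mitochondria-specific protein, had 44.1 and 74.2 RPKM in control and 70.6 and 40.9 RPKM in HDACi 4b libraries. Each group held 1 low and 1 high library, and the log2 fold change was -0.02 ± 0.27 (SE). The spread within a group thus exceeded the difference between the groups. Mrps12, in the decoding centre, where the codon is read, had 28.8 and 27.6 RPKM in control and 24.3 and 22.8 RPKM in HDACi 4b libraries, lower in both treated libraries as deposited but overlapping after scaling, and its log2 fold change was -0.19 ± 0.19 (SE). At the low end, Mrps10 had 1.81 and 2.03 RPKM against 1.87 and 1.63 RPKM, and Mrps5 had 1.72 and 1.60 RPKM in control against 1.46 and 1.49 RPKM. Mrps26, a mitochondria-specific protein, had 1.12 and 0.715 RPKM in control and 0.801 and 0.668 RPKM in HDACi 4b libraries, and its mean of 0.826 RPKM was under the limit for testing.

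In the large subunit the leading members were Mrpl34, Mrpl40, Mrpl55, Mrpl18 and Mrpl46. Mrpl34, whose bacterial counterpart is among the smallest ribosomal proteins (chr8:71464959-71465747), had 240.0 and 185 RPKM in control and 208 and 211 RPKM in HDACi 4b libraries. Both treated libraries lay between the controls, and the log2 fold change was 0.06 ± 0.29 (SE). Mrpl40, specific to mitochondria, had 179 and 150 RPKM against 141 and 167 RPKM. Mrpl55 had 142 and 148 RPKM against 117 and 119 RPKM, lower in both treated libraries as deposited but overlapping after scaling, with a log2 fold change of -0.23 ± 0.21 (SE). Mrpl18, counterpart of a protein that binds the small ribosomal RNA of the bacterial large subunit, had 123 and 91.9 RPKM against 84.0 and 102 RPKM, so the groups overlapped. Mrpl46 had 106 and 108 RPKM against 93.2 and 92.2 RPKM, lower in both treated libraries as deposited, but after scaling the groups overlapped and its log2 fold change was -0.14 ± 0.20 (SE).

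The ribosomal stalk, which recruits the translation factors, is formed by Mrpl10, Mrpl11 and Mrpl12. Its base protein Mrpl11 had 18.6 and 21.4 RPKM in control and 17.4 and 17.2 RPKM in HDACi 4b libraries. Mrpl10 had 9.73 and 9.17 RPKM against 7.90 and 6.94 RPKM, and Mrpl12, which is present in several copies on the stalk, had 12.0 and 10.7 RPKM against 11.9 and 9.03 RPKM. All 3 had negative log2 fold changes (-0.13 for Mrpl11, -0.28 for Mrpl10 and -0.05 for Mrpl12), with standard errors of 0.16 to 0.22, and none passed the test. At the low end of the large subunit, Mrpl20 had 0.892 and 1.25 RPKM against 1.53 and 0.938 RPKM. Mrpl33 had 0.203 and 0.091 RPKM against 0.220 and 0.271 RPKM, and Mrpl19 had 0.169 and 0.218 RPKM against 0.234 and 0.026 RPKM. The last value stood on 2 reads, so that no difference was detectable for Mrpl19 at this depth.

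The Mrps18 paralogs descend from a single bacterial protein and take different places in the particle, Mrps18a in the large subunit and Mrps18b and Mrps18c in the small subunit. Mrps18a was the most abundant of them, with 41.4 and 30.8 RPKM in control and 33.7 and 33.8 RPKM in HDACi 4b libraries. Mrps18c had 16.8 and 14.5 RPKM against 11.5 and 22.6 RPKM, and Mrps18b had 2.40 and 3.05 RPKM against 2.99 and 2.38 RPKM. The order of the paralogs was the same in every library, with no overlap of their values, whereas the groups overlapped for each. The 2 HDACi 4b libraries of Mrps18c differed more than its groups did, and its 4 scaled values spanned 2.18-fold, the widest of the tested members. Mrps36, named as a small subunit protein but known as a subunit of the 2-oxoglutarate dehydrogenase complex, had 32.3 and 32.6 RPKM against 29.2 and 32.7 RPKM. Its log2 fold change was -0.00 ± 0.20 (SE).

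The subunits had similar median levels, 14.4 RPKM over the 25 genes of the small and 16.6 RPKM over the 50 genes of the large subunit. By origin, the 48 members with a bacterial counterpart had a median of 19.7 RPKM and the 27 mitochondria-specific ones 10.3 RPKM. Within the large subunit the medians were 23.7 RPKM (31 genes) and 8.74 RPKM (19 genes), and within the small subunit 16.4 RPKM (17 genes) and 12.3 RPKM (8 genes). The same order was seen in each of the 4 libraries in the large subunit, with 20.2 to 23.9 RPKM against 8.13 to 12.0 RPKM. Within every class the genes ranged more widely than the medians differed, and the most abundant member of all was mitochondria-specific.

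**Figure D2:**
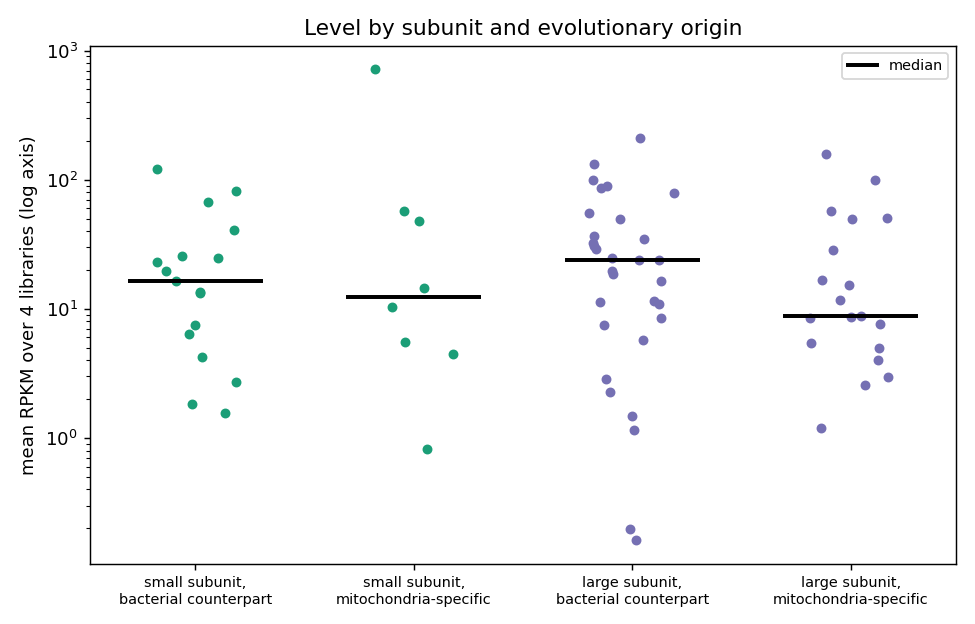
Mean RPKM over the 4 libraries on a log axis for each gene, in 4 classes by subunit and by whether the protein has a bacterial counterpart, with the class median as a bar. The medians lie between 8.74 and 23.7 RPKM and the classes overlap over most of their range.

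The promoters of the members shared sequence features that the rule did not use. In the RefSeq promoter windows of GRCm38.p6, which run from 250 bases before to 50 bases after the RefSeq start of a gene, 68 of the 76 members had an entry. The letters CCGGAAG, the core bound by ETS factors such as GABPA, were found on either strand in 25 of them (36.8%), against 9.93% of 27025 genes with a window and 21.2% of the 6444 that reached a mean of 1 RPKM. The letters AAGATGGC, known from sites of YY1, were found in 12 (17.6%), against 3.19% and 5.52%. The letters GCGCATGC, known from sites of NRF1, a factor that binds promoters of many nuclear genes for mitochondrial proteins, were found in 8 (11.8%), against 3.05% and 6.73%. At least 1 of these 3 was present in 37 members (54.4%), against 14.9% of all genes and 30.4% of those at 1 RPKM. The SP1 core GGGCGG went the other way against expressed genes, with 34 members (50%) against 38.2% of all and 64.0% of those at 1 RPKM, and the TATA box letters TATAAA were found in 5 (7.35%), against 15.7% and 9.76%. The median GC content of the windows was 58.0% in the members, 52.8% in all genes and 59.7% in those at 1 RPKM. Both strands were searched, and matches of different motifs overlapped in 2 of the 74 windows of the members. A match is a description of the sequence and not evidence that a factor was bound.

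The 250 bases before the start are shown for the most abundant member of each subunit (Mrps33 and Mrpl34), for the least abundant member of each subunit with a window (Mrps26 and Mrpl33) and for Mrps12, the decoding centre protein whose start faces that of another mitochondrial gene. They are read 5′ to 3′ on the strand of the gene, in the GRCm38.p6 build, and capitals mark the motif letters above on either strand.
Mrps33, chr6:39810937-39811186, minus strand: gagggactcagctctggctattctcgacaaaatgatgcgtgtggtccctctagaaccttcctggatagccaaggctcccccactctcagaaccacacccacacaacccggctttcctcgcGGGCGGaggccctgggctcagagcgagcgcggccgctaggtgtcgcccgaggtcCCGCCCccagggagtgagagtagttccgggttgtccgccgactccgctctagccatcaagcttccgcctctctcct
Mrpl34, chr8:71464676-71464925, plus strand: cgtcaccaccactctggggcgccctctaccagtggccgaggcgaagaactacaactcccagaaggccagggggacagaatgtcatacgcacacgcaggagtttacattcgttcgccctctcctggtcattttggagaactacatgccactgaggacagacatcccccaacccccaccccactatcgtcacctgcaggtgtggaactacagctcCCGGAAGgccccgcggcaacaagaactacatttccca
Mrps12, chr7:28741822-28742071, minus strand: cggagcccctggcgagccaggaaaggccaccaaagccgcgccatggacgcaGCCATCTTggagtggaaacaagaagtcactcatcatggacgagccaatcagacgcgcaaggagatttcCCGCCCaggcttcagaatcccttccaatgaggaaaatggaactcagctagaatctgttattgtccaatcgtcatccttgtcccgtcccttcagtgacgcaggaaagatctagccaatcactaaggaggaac
Mrps26, chr2:130563507-130563756, plus strand: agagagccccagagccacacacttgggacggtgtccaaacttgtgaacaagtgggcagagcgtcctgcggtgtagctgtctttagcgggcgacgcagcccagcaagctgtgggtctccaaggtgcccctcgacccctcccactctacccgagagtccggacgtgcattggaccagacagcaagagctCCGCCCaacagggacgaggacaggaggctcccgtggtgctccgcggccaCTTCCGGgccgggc
Mrpl33, chr5:31613701-31613950, plus strand: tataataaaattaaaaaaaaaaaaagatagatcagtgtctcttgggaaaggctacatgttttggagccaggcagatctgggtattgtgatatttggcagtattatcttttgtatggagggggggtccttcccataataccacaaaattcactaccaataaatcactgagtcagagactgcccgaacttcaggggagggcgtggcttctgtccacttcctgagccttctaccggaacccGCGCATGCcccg

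The Mrps33 sequence held the SP1 core at 130 and 76 bases before the start and none of the ETS, YY1 or NRF1 letters. The Mrpl34 sequence held the ETS core 37 bases before the start. In the low members, Mrps26 held the ETS core 14 bases before the start and the SP1 core at 63, and Mrpl33 held the NRF1 letters 12 bases before it. Mrps12 held the YY1 letters at 199 and the SP1 core at 131 bases before the start. The YY1 letters thus lie farther off than the 172 bases between the starts of Mrps12 and Sars2, the gene it faces. Which matches lie in the sequence of a neighbour was not examined for the other members. The median level was 16.8 RPKM in members with the ETS core and 19.6 RPKM in those without, 24.8 against 16.6 RPKM for the YY1 letters and 12.4 against 19.7 RPKM for the NRF1 letters. It was 23.9 against 15.9 RPKM for the SP1 core and 30.7 against 16.8 RPKM for the TATA box letters, and none of these differences was tested.

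The members lay on 17 chromosomes, with 11 members on chromosome 11 and 7 on chromosome 17. In GENCODE M21, 32 of the 76 (42.1%) had a coding gene on the opposite strand whose start lay within 1000 bases of their own, against 10.9% of 21951 coding genes. The share among genes at 1 RPKM was not counted, so the contrast may not be particular to the members. Such neighbours lay above and below the member they face. Mrps12 (chr7:28739641-28741820, 22.8 to 28.8 RPKM) starts 172 bases from Sars2, the mitochondrial seryl-tRNA synthetase, which had only 0.128 to 0.263 RPKM. Mrpl40 (chr16:18872018-18876862) starts 175 bases from the histone chaperone gene Hira, and their mean levels were 159 and 0.055 RPKM. In the other direction, Mrpl49 (mean 4.05 RPKM) starts 59 bases from Fau (219 RPKM), and Mrpl32 (24.9 RPKM) starts 75 bases from the proteasome gene Psma2 (160 RPKM). The pair Mrpl36 and Ndufs6, a subunit of respiratory complex I, starts 29 bases apart and had near equal means of 23.9 and 23.6 RPKM. Of the 31 neighbours measured, 23 had a lower mean level than the member they face. Mrpl46 and Mrps11 face each other, with exons that overlap on opposite strands, and had means of 99.9 and 13.4 RPKM. Log2 fold changes were positive in 10 of the 18 neighbours tested, and 0 of them passed the test described below.

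Levels depended on the gene models. Over the 76 members, the log2 level and the log2 exonic length had a Pearson correlation of -0.48 and a Spearman correlation of -0.44, given as a description, since length enters both. For 69 members the RPKM values matched the union of all exons, and for the other 7 a fitted length was used. The length used exceeded the longest coding transcript of the gene by over 2 times in 17 members. The extreme was Mrpl33, with 7326 bases of exons against a transcript of 478 bases. Its gene model in GENCODE M21 (GRCm38) runs over chr5:31596935-31664384. If all of its counted reads lay on that transcript, its mean level would be 3.01 RPKM in place of 0.196 RPKM. On the same assumption Mrpl42 would rise from 56.8 to 314 RPKM and become the second most abundant member. Mrps22 would rise from 57.4 to 192 RPKM. Mrps33 would still lead, and Mrpl19 would still be the lowest, at 0.176 RPKM. Where in the exons the reads lay was not examined, so these levels are upper limits. The ranks of the members on the 2 lengths had a Spearman correlation of 0.95. The choice of length is the same in every library, but it sets which genes pass the limit of 1 RPKM for testing. Mrpl33, with 9 to 28 reads per library, would have passed it if all of them lay on its longest transcript.

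Some members shared exons with other genes. Since no source used here gives the strand setting of the counting, reads from overlapping genes on opposite strands cannot be told apart. Exonic sequence was shared by 31 members, and 8 shared over 20% of it. Mrps25 shared 69.8% with the nuclear receptor gene Nr2c2, Mrpl19 shared 36.0% with Gcfc2, and Mrpl43 shared 33.4% with Twnk, the mitochondrial DNA helicase. Mrps18b shared 30.5% and Mrps18c 23.2%, in both cases with a gene model known only by a Gm number. The others were Mrpl24, Mrps27 and Mrpl47. The values of these 8 genes are uncertain, and how many of their reads came from the shared sequence was not estimated.

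The comparison of the control and HDACi 4b-treated groups called no member. The test was limma on log2(RPKM + 0.1) over the 9461 genes whose mean level reached 1 RPKM, with p-values adjusted over all of them. Of these genes, 0 were higher (0%) and 0 lower (0%) at an adjusted p under 0.05, and of the 73 members that could be tested 0 passed in either direction. Before adjustment, a p under 0.05 was reached by 136 genes in the higher (1.44%) and 132 in the lower direction (1.4%), and by 0 members. With limma-voom on the recovered reads the calls were again 0, with 102 higher and 120 lower at that unadjusted level. All members had an adjusted p of 1.0. The log2 fold changes of the members ran from -0.39 to 0.33 with a median of -0.04, against -0.00 over all genes tested. There were 30 positive and 43 negative values (41.1% positive), against 49.7% positive over all genes. In the small subunit 12 were positive and 12 negative, and in the large subunit 18 and 30.

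For 71 of the 73 members (97.3%) the 95% interval lay within a 2-fold change in either direction, against 81.2% of all genes tested. The exceptions were Mrps18c and Mrpl20, whose intervals reached log2 values of 1.04 and 1.05. These intervals were taken gene by gene without adjustment, so they do not set a limit of detection for the adjusted test. With this number of libraries, log2 fold changes over all genes tested ran from -3.99 to 3.63, and 0 genes were called. The lack of calls is therefore no measure of how small the changes were.

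**Figure D3:**
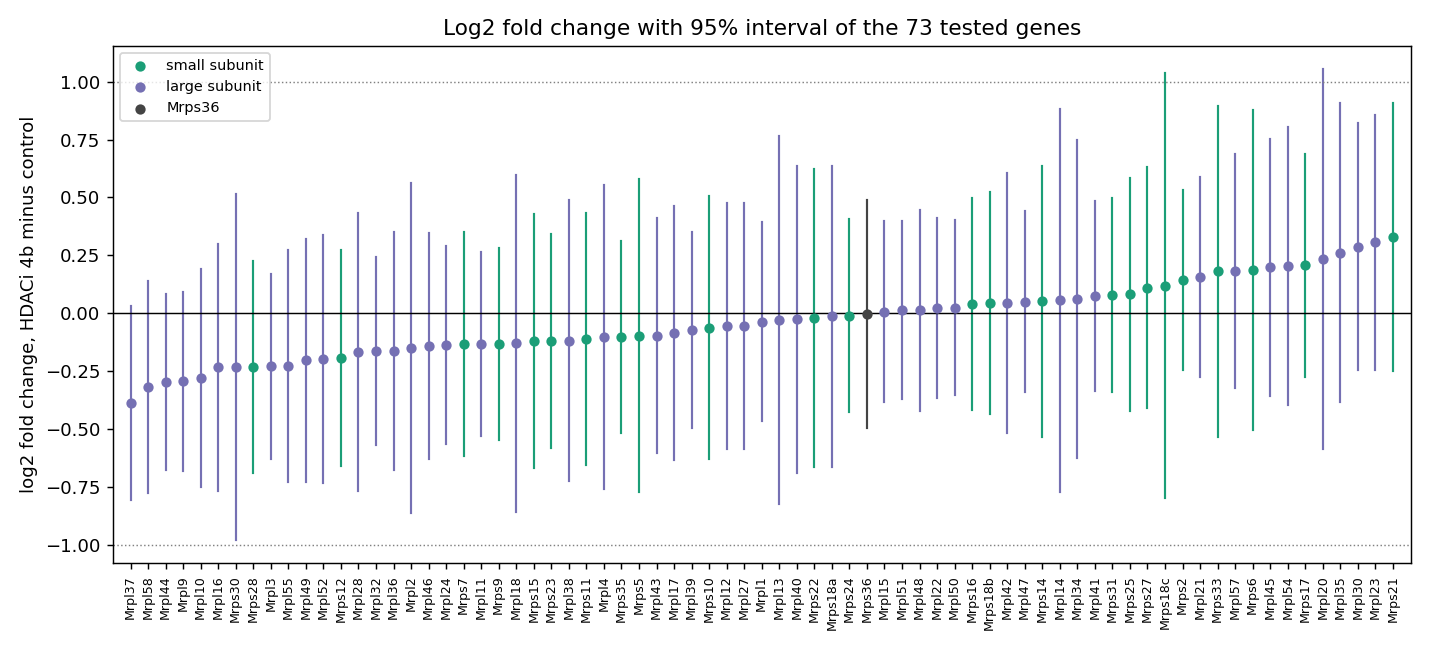
Log2 fold change, HDACi 4b minus control, of the 73 tested genes in order of size, with 95% intervals from limma and dotted lines at 2-fold in either direction. Every interval includes 0, and those of Mrps18c and Mrpl20 reach past the upper dotted line.

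The largest negative value was that of Mrpl37, a mitochondria-specific protein of the large subunit (chr4:107055874-107066868). It had 8.51 and 9.17 RPKM in control and 7.09 and 5.81 RPKM in HDACi 4b libraries, and both treated libraries lay below both controls. The log2 fold change was -0.39 ± 0.17 (SE), corresponding to 0.76-fold (95% interval 0.57 to 1.02, adjusted p = 1.0). Next in order of p came Mrpl44, which resembles the double-stranded RNA nuclease RNase III, with 8.73 and 10.9 RPKM against 7.84 and 7.30 RPKM (log2 fold change -0.30 ± 0.16). Mrpl9 followed with 16.95 and 20.1 RPKM against 15.7 and 13.1 RPKM (log2 fold change -0.29 ± 0.16). Mrpl58, a hydrolase that frees the peptide from stalled ribosomes and is built into the large subunit, had 7.72 and 12.3 RPKM against 8.42 and 6.56 RPKM (log2 fold change -0.32 ± 0.19). Its deposited values overlapped between the groups and separated only after scaling. Mrpl10 of the stalk was the fifth. All 5 belong to the large subunit, as do 48 of the 73 tested members and 30 of the 43 negative ones. Without control replicate 1 the log2 fold change of Mrpl10 was -0.07 and that of Mrpl58 -0.48, and without control replicate 2 they were -0.49 and -0.15.

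Among positive values the smallest p belonged to Mrps21, given above, whose log2 fold change was 0.33 ± 0.24 (SE), or 1.26-fold. Mrpl23, which lies near the exit of the peptide tunnel, had 2.07 and 2.10 RPKM in control and 2.49 and 2.47 RPKM in HDACi 4b libraries. The treated libraries lay above both controls, with a log2 fold change of 0.31 ± 0.23 (SE). Mrpl30 had 9.05 and 11.4 RPKM against 15.2 and 9.22 RPKM (log2 fold change 0.29 ± 0.22), whose deposited values overlapped and separated only after scaling. Mrps17 had 13.2 and 12.4 RPKM against 14.0 and 14.2 RPKM (log2 fold change 0.21 ± 0.20), above both controls as deposited but overlapping after scaling. Mrpl35 had 93.5 and 73.9 RPKM against 91.6 and 98.6 RPKM (log2 fold change 0.26 ± 0.27). Without control replicate 2 the log2 fold changes of Mrps17 and Mrpl35 turned to -0.0031 and -0.076, and those of Mrps21 and Mrpl23 fell to 0.11 and 0.15. Mrps21 was at 0.12 without HDACi 4b replicate 2 and at 0.55 and 0.54 without control replicate 1 and HDACi 4b replicate 1. The value of Mrpl30 rested on HDACi 4b replicate 1, at 0.0050 without it and 0.57 without HDACi 4b replicate 2.

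The groups did not overlap, on the scaled values, in 17 members. Both treated libraries lay above both controls in 4 (Mrpl47, Mrpl30, Mrps2 and Mrpl23), against 13.6% of all genes tested, and below both in 13 (among them Mrps28, Mrpl37, Mrpl44, Mrpl9 and Mrpl10), against 14.4% of all genes. That is 5.48% and 17.8% of the members. The counts moved with the libraries. Without control replicate 1 there were 35 above and 16 below (47.9% and 21.9% of the members, against 36.3% and 32.5% of all genes), and without control replicate 2 there were 9 above and 47 below (12.3% and 64.4%, against 29.2% and 35.3%). With 1 library against 2, separation is more frequent in all genes by construction.

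On the scaled values, the difference between the control libraries was larger than that between the groups. Control replicate 1 had the higher scaled value in 59 of the 73 members, and the median difference between the control libraries was 0.28 on the log2 scale, against 0.02 over all genes tested. This order depends on the scaling (factors 0.911 and 1.15). As deposited, the median over the 76 members was 16.3 RPKM in control replicate 1 and 18.1 RPKM in control replicate 2. As a deviation from the mean over the libraries, the median member stood at 0.16 in control replicate 1, -0.09 in control replicate 2, -0.08 in HDACi 4b replicate 1 and -0.00 in HDACi 4b replicate 2. The medians over all genes tested were 0.02, -0.01, -0.03 and 0.03. Control replicate 1 was the highest library for 44 of the 73 members, against 27.6% of all genes. Control replicate 2 was the lowest for 33 of the 73, against 30.7% of all genes. Both treated libraries lay between the controls in 23 of the 73 members, for which the share over all genes was not counted. Within a group, the libraries of a member differed by a median of 0.28, and the group means by a median of 0.12, against 0.26 and 0.14 over all genes tested. The group difference exceeded the within-group difference in 17 members (23.3%), against 28.1% of all genes.

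**Figure D4:**
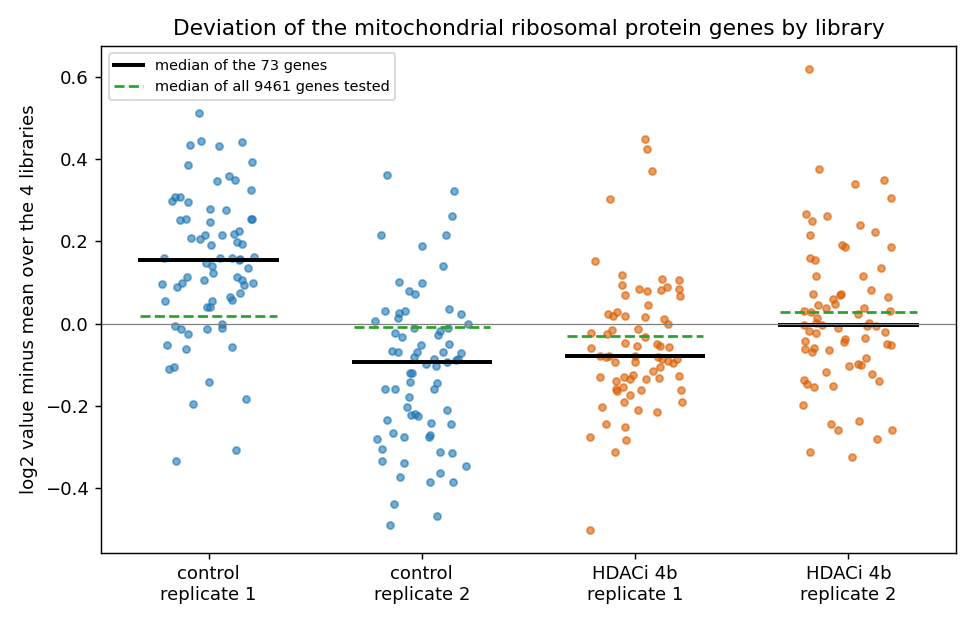
Deviation of each of the 73 tested genes from its mean over the 4 libraries, on the scaled log2 scale, 1 point per gene, with the median of the genes (solid) and of all 9461 genes tested (dashed). The median stands at 0.16 in control replicate 1 and at or below 0 in the other libraries, and the HDACi 4b libraries lie between the controls.

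The split of the controls was graded by gene length. The tested members were divided into 4 groups by the length used, which was fitted for 7 members. In the shortest group (607 to 1274 bases of exons, 19 genes) the median deviation was 0.25 in control replicate 1 and -0.16 in control replicate 2. In the longest group (4171 to 8631 bases, 18 genes) it was 0.11 and -0.04. The median log2 fold change did not follow the same order, at -0.03, -0.12, 0.00 and -0.05 from the shortest to the longest group. The part of length in the difference between the controls was not tested further. In absolute terms the libraries were close. Of the 73 members, 72 had all 4 scaled values within 2-fold (90.2% of all genes tested did). Within 1.5-fold there were 56, for which the share over all genes was not counted. The median span was 1.38-fold in the members and also 1.38-fold over all genes tested. The steadiest members were Mrpl22, Mrpl50 and Mrpl47, with spans of 0.07 to 0.09 on the log2 scale.

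The partners of these proteins were given by lists of genes, described by counts as for the members. Counts of calls are over all genes tested, as above. Of 5 further mitoribosome subunits that carry other names, 3 had positive and 2 negative log2 fold changes and 0 were called. Dap3, a GTP-binding protein of the small subunit, had 60.3 and 56.7 RPKM in control and 61.6 and 49.7 RPKM in HDACi 4b libraries. Chchd1, also in the small subunit, had 60.7 and 74.2 RPKM against 75.8 and 73.4 RPKM. Aurkaip1 had 52.9 and 68.6 RPKM against 61.3 and 50.2 RPKM. As deposited, the groups overlapped for each of these genes, and after scaling both treated libraries of Chchd1 lay above both controls. The 2 ribosomal RNAs of the particle were measured as well. The large ribosomal RNA, mt-Rnr2, had 588 and 679 RPKM against 617 and 733 RPKM, and the small one, mt-Rnr1, had 167 and 216 RPKM against 219 and 231 RPKM. As deposited and after scaling, mt-Rnr1 was higher in both treated libraries, whereas the groups overlapped for mt-Rnr2. Both RNAs had positive log2 fold changes (0.16 ± 0.27 and 0.31 ± 0.21, SE), and neither passed the test.

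Factors that serve the mitoribosome were expressed at lower levels. Of the translation factors 11 of 13 measured were tested, with a median of 2.95 RPKM, 5 positive, 6 negative and 0 called. The most abundant was Mtrf1, of the release factor family, with 18.7 and 27.1 RPKM in control and 23.4 and 23.1 RPKM in HDACi 4b libraries. Gfm1, the elongation factor that moves the ribosome along the messenger RNA, had 6.98 and 10.4 RPKM against 8.50 and 8.69 RPKM. For both the treated libraries lay between the controls as deposited, whereas after scaling HDACi 4b replicate 2 was the highest library. Mtfmt, which formylates the initiator methionine, had 2.90 and 4.10 RPKM against 2.35 and 2.45 RPKM, lower in both treated libraries (log2 fold change -0.44 ± 0.20, adjusted p = 1.0). Of the assembly factors 16 of 23 were tested, 8 positive and 8 negative with 0 called, and Tfb1m, the methylase of the small ribosomal RNA, had 24.3 and 25.6 RPKM against 27.9 and 22.6 RPKM. Ngrn had 24.8 and 32.4 RPKM against 22.6 and 20.7 RPKM, and Mettl17 had 2.35 and 1.92 RPKM against 1.35 and 1.22 RPKM (log2 fold change -0.63 ± 0.29, adjusted p = 1.0). Both were lower in both treated libraries, and neither passed the test. Of the mitochondrial aminoacyl-tRNA synthetases and the related amidotransferase subunits, which charge the transfer RNAs, only 4 of 20 reached the limit of 1 RPKM. Their median was 0.332 RPKM over all 20, and the most abundant was Rars2 with 13.6 and 15.8 RPKM against 19.5 and 13.2 RPKM. All 6 genes of mitochondrial transcription were tested, with 3 positive, 3 negative and 0 called. Tfam, which packs mitochondrial DNA, had 4.88 and 6.84 RPKM against 6.55 and 4.78 RPKM.

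Larger sets of related proteins showed the same split of the controls on the scaled values. Of the cytoplasmic ribosomal protein genes 79 of 84 were tested, with 45 positive, 34 negative, 0 called and a median log2 fold change of 0.03, and 3 reached an unadjusted p under 0.05. The most abundant, Rpl17, had 919 and 826 RPKM in control and 822 and 874 RPKM in HDACi 4b libraries. Rps21, with the smallest p, had 3.23 and 4.58 RPKM against 1.99 and 2.37 RPKM, lower in both treated libraries (log2 fold change -0.73 ± 0.22, adjusted p = 1.0). The median deviation of the set was 0.17 in control replicate 1, -0.20 in control replicate 2, -0.11 in HDACi 4b replicate 1 and 0.17 in HDACi 4b replicate 2. Of the nuclear genes for oxidative phosphorylation, which work together with the products of the mitoribosome, 90 of 102 were tested, with 52 positive, 38 negative and 0 called, and 1 reached an unadjusted p under 0.05. This was Ndufs5, a complex I subunit, which had 59.8 and 61.9 RPKM in control and 84.0 and 75.8 RPKM in HDACi 4b libraries, higher in both treated libraries (log2 fold change 0.46 ± 0.19, adjusted p = 1.0). The median deviations of the set were 0.11, -0.17, -0.06 and 0.13. In both sets control replicate 1 stood above control replicate 2, as in the members, and HDACi 4b replicate 2 stood above HDACi 4b replicate 1 by more than in the members. By level, the tested members (median 16.8 RPKM) lay near the cytoplasmic ribosomal proteins (17.9 RPKM) and under the oxidative phosphorylation genes (28.9 RPKM). The cytoplasmic list was taken by gene name, also held Rps27l, and ran from 0.067 to 860 RPKM, so its median describes that list only. No difference between these sets was tested.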

How the data were processed

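RNA of denuded oocytes was sequenced in 4 libraries, grouped by the labels. The authors deposited 1 table of RPKM values, with 0 columns left unused. The submitters' notes name Bowtie 0.12.2 and mm8, whereas the row lengths matched GENCODE M21 (GRCm38). The counting tool and its strand setting were named in no source used here. Whole reads (tolerance 0.01) were obtained at the annotated length for 22636 of the 26631 rows and 69 of the 76 members. For the other 3995 rows, 7 of them members, the smallest length giving whole reads was used. Whole reads were thus fixed in advance for these rows, and their read counts may be too low. Totals were 14143248 and 13478189 (control) and 14903547 and 14091412 reads (HDACi 4b). The lowest tested member value stood on 21 reads.

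Libraries were scaled by trimmed means of read ratios (30% of ratios, 5% of levels; factors 0.911, 1.15, 1.03 and 0.925), and limma 3.58.1 in R 4.3.3 with an intensity trend and no covariate was run on log2(RPKM + 0.1) of genes reaching a mean of 1 RPKM (two-sided, Benjamini-Hochberg at 0.05). This understates changes of low genes. RPKM in the text are unscaled. No label states that replicates were separate animals or cultures. The p-values therefore reflect only how far these libraries vary, which may be technical variation. An exact permutation test of 2 against 2 cannot go below 0.333 and was not used. The fit was also run on simulated data with the same spread for all genes. That outcome is not given here and is not used as support. Members, lists, tests and alternatives were chosen with earlier results of these data known. Named with values were the 5 highest and 3 lowest members of each subunit, the 5 with the smallest p in each direction, the Mrps18 paralogs, the stalk, Mrps12 and Mrps36, and from each list genes by level and p. Dap3, Tfam, Mrps25, Mrpl43, Mrpl42, Mrpl22, Mrpl50 and the head-to-head neighbours were chosen after their values were seen. Alternatives were other scalings, pseudocounts and filters, limma-voom, robust estimation, a replicate block and leaving out each library. Mrpl53 and Mrps34 were not analysed here.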

Additional observations from a re-analysis of the deposited data

How the results depend on the processing

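The count of members called was 0 under every alternative run. The count of all genes called was 0 except when a library was left out, where it ranged from 0 to 3 (Krt18, Calcoco2 and Gm22107, named because they passed, without HDACi 4b replicate 2). Without scaling, 22 members (30.1%, against 16.8% of all genes) did not overlap on the lower side and 18 were positive, the median log2 fold change of all genes was -0.07 and that of the members -0.10, and the unadjusted split over all genes was 57 higher and 135 lower, against 136 and 132. With upper quartile scaling, 2 members (2.74%, against 13.6% of all genes) did not overlap on the higher side. With each library left out in turn, non-overlapping members ranged from 9 to 35 higher (12.3% to 47.9%, against 27.4% to 36.3% of all genes) and from 16 to 47 lower (21.9% to 64.4%, against 27.4% to 35.3%), the positive members from 17 (without control replicate 2) to 53 (without control replicate 1), and the median log2 fold change from -0.16 to 0.08 without the same controls. The log2 fold change of Mrps17 ranged from -0.0031 to 0.42 and that of Mrpl35 from -0.076 to 0.60, both lowest and of opposite sign without control replicate 2. At an unadjusted p under 0.05, Mrpl35 was higher without control replicate 1 (1.37% of members, against 3.27% of all genes), Mrpl28, Mrpl2 and Mrpl16 lower without control replicate 2 (4.11% against 1.98%), and Mrpl30 higher without HDACi 4b replicate 2 (1.37% against 1.91%). The lone library left in a group was assumed to vary like the others. A replicate block gave 0 calls and a median log2 fold change of -0.04 in the members, and same-numbered libraries deviated together with a correlation of only 0.0453, so the numbers were not taken to pair them. The cause of these shifts was not tested. Low members are limited by depth, down to 2 reads for Mrpl19.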
